A study of Mus musculus with 70 samples.

Results

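The microRNA miR-21a was measured through its arms, mmu-miR-21a-5p and mmu-miR-21a-3p (miR-21a-5p and miR-21a-3p from here on), in mouse microglia and in the remaining brain cells at 3 ages. The members were the 2 entries of the count table that carry these names, out of 2029 entries with 1885 distinct names. Both passed the filter on low counts that left 1072 features for testing. Whole brains of wild-type C57BL/6 mice of both sexes were taken 6 days (P6), 15 days (P15) or 8 weeks after birth, freed of meninges and digested to single cells. CD45+ cells were captured by immunopanning on an antibody-coated surface and are called microglia here, and the CD45- cells of the same brain are called bulk CNS cells. No genotype or treatment differed between mice. CD45 is also carried by monocytes and macrophages, so the panned fraction is not restricted to microglia by the method. The CD45- fraction is a mixture of neurons, oligodendrocytes, astrocytes, vascular and other cells. After 1 P6 female (mouse 6) was set aside, 10 mice at P6 (4 female, 6 male), 12 at P15 and 12 at 8 weeks (6 of each sex) remained, with 1 microglial and 1 bulk small RNA library from each mouse, 68 libraries in all.

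A microRNA gene is transcribed into a hairpin, which is cropped in the nucleus and diced in the cytoplasm into a short duplex. In most cases an Argonaute protein keeps the guide strand, and the passenger strand is released and degraded. The guide recognises messenger RNAs mainly through its seed, bases 2 to 8 from the 5′ end. miR-21 is among the most widely studied mammalian microRNAs. Its gene lies at the end of Vmp1, which encodes a membrane protein of autophagy, and it is known to be induced in macrophages by inflammatory signals acting through NF-κB, AP-1 and STAT3. Its 5p arm is the usual guide and is known to repress messenger RNAs of growth and inflammation control, such as those of Pdcd4 and Spry1.

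The mature sequences are shown because the arms of miR-21a carry different seeds and because their distance from other mouse miRNAs sets which reads can be assigned to them. They are given 5′ to 3′ as RefSeq has them on GRCm38.p6, with the seed in capitals. Below the arms of miR-21a stand the 2 other mouse miRNAs named for miR-21.
miR-21a-5p: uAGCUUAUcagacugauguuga
miR-21a-3p: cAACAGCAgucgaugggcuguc
miR-21c: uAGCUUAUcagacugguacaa
miR-21b: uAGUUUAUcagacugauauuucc

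The hairpin of miR-21a spans chr11:86584067-86584158 on the minus strand, within the 3′ untranslated part of exon 12 of Vmp1 (chr11:86583865-86585310, transcript Vmp1-201), on the same strand as that gene. miR-21a-5p lies at chr11:86584120-86584141 and miR-21a-3p at chr11:86584082-86584103. Among the mature mouse miRNAs of the reference table, which may not hold every mouse miRNA, only miR-21c (chr8:128278188-128278208, minus strand) shared the seed of miR-21a-5p, and none shared that of miR-21a-3p. Counting from 1 at the 5′ end of miR-21a-5p, miR-21c differed by A16G, G18A, U19C, U20A and G21A. miR-21b (chr3:29636768-29636790, plus strand) had C4U inside the seed. Their reads were few beside those of miR-21a-5p. miR-21c reached at most 2 counts and miR-21b at most 11 counts in any library, against up to 70867 counts of miR-21a-5p. miR-3967 and miR-3965, which were each within 2 mismatches of miR-21a-5p, reached at most 2 counts each.

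Library totals ran from 1678034 to 8747394 counts. P6 microglia were the shallowest group, with a median total of 2924441 counts, and P6 bulk the deepest, with 7097199.5 counts, so levels are given in CPM (counts for each 1000000 counts in a library). The myeloid markers miR-142a, miR-223 and miR-511, both arms of each, passed the test as higher in microglia at every age (6 of 6). Their summed level lay between 10704 and 35200 CPM in microglia and between 107 and 504 CPM in bulk, so the labelled fractions matched these markers. All 7 neuronal markers were lower in microglia at every age, with summed levels of 14873 to 55234 CPM against 55634 to 174986 CPM in bulk. All 4 erythroid markers (such as miR-451a) were higher in microglia at every age, with summed levels of 8113 to 107132 CPM against 1729.8 to 10675 CPM. Over all 1072 features tested, 17.4%, 21.3% and 21.2% passed as higher in microglia at P6, P15 and 8 weeks, and 10.6%, 18.7% and 23.7% as lower. The part of these cell types in the differences described next was not tested.

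Both arms were above the limit that 3 counts set in all 68 libraries. miR-21a-5p was an abundant miRNA. By mean CPM it ranked 12 of 1882 features in microglia at P6, 21 at P15 and 27 at 8 weeks, and 58, 53 and 34 in bulk. miR-21a-3p ranked 180, 308 and 309 in microglia and 522, 530 and 461 in bulk.

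At P6, miR-21a-5p was measured at 13011 CPM in the lowest, 15771 CPM in the median and 27449.5 CPM in the highest microglial library. In bulk it was 1550.1 CPM in the lowest, 2058 CPM in the median and 2381 CPM in the highest library. Every microglial library lay above every bulk library, and it was higher in the microglia of all 10 mice. The level was 7.54-fold higher in microglia, a log2 fold change of 2.92 ± 0.10 (SE, limma TREAT adjusted p = 1.05e-27). TREAT tests whether a change exceeds 2-fold, and the p-value is adjusted over all 1072 features by the Benjamini-Hochberg method. miR-21a-5p ranked 76 of them by fold change, where 17.4% passed as higher in microglia.

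The passenger arm differed more at the same age. miR-21a-3p was measured at 104 CPM in the lowest, 171 CPM in the median and 457 CPM in the highest microglial library at P6, and at 2.63, 5.91 and 15.7 CPM in bulk. These are 175 to 1181 counts per microglial library and 18 to 94 counts per bulk library. The fractions did not overlap. miR-21a-3p was 30.3-fold higher in microglia, a log2 fold change of 4.92 ± 0.24 (SE, TREAT adjusted p = 4.09e-23), which ranked 24 of 1072. With the P6 female set aside put back, both calls held. Since P6 microglial libraries were shallower than P6 bulk libraries, every library was also thinned to 1678034 counts, which gave log2 fold changes of 2.97 and 5.05 for miR-21a-5p and miR-21a-3p.

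At P15, miR-21a-5p lay between 7496 and 16384 CPM in microglia (median 11184 CPM) and between 1534 and 3165 CPM in bulk (median 2656 CPM). Microglia were above bulk in all 12 mice, without overlap. The log2 fold change was 2.32 ± 0.09 (SE, TREAT adjusted p = 7.1e-22), or 5.00-fold, where 21.3% of features passed as higher in microglia. miR-21a-3p lay between 15.7 and 104 CPM in microglia (median 46.4 CPM) and between 3.91 and 14.97 CPM in bulk (median 5.55 CPM). The lowest microglial library (male mouse 1) was close to the highest bulk library. The log2 fold change was 2.94 ± 0.25 (SE, TREAT adjusted p = 6.01e-10), or 7.70-fold.

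At 8 weeks miR-21a-3p passed the test and miR-21a-5p did not. miR-21a-5p lay between 4893 and 9623 CPM in microglia (median 7434 CPM) and between 4357 and 8179 CPM in bulk (median 5600.1 CPM), so the fractions overlapped over most of their range. It was higher in the microglia of 10 mice and lower in those of 2. The log2 fold change of 0.44 ± 0.08 (SE, 95% interval 0.27 to 0.61) did not exceed the 2-fold threshold (limma TREAT adjusted p = 1). Tested against no change at all, the same difference passed (limma adjusted p = 5.26e-06), as 34.9% of features did in that direction. miR-21a-3p lay between 16.3 and 51.9 CPM in microglia (median 34.6 CPM) and between 4.14 and 16.1 CPM in bulk (median 8.39 CPM). All 12 mice had more of it in microglia, and the highest bulk library fell just short of the lowest microglial one. The log2 fold change was 1.89 ± 0.23 (SE, TREAT adjusted p = 0.000343), or 3.71-fold, where 21.2% of features passed as higher.

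**Figure D1:**
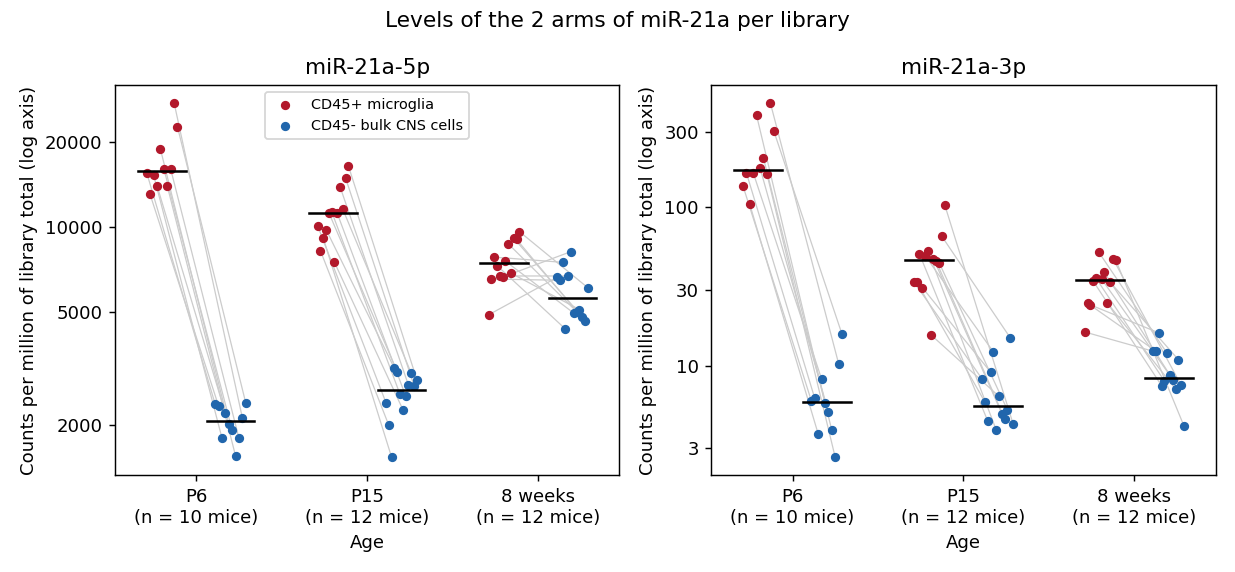
Level of miR-21a-5p (left) and miR-21a-3p (right) in each library, in CPM on a log axis, by age. Red points are microglia, blue points bulk, grey lines join the libraries of a mouse and black bars are medians; the 5p fractions overlap at 8 weeks, where the 3p fractions lie at 16.3 to 51.9 CPM and 4.14 to 16.1 CPM.

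With the ages pooled, both arms were enriched in microglia, miR-21a-5p by 1.89 ± 0.05 (SE, adjusted p = 5.78e-25) and miR-21a-3p by 3.25 ± 0.14 (SE, adjusted p = 1.73e-23) on the log2 scale. Here 23.3% of features passed as higher. The pooled value of miR-21a-5p averages ages between which its enrichment differed.

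The question of whether enrichment differed between ages was tested as the interaction of age and fraction. The log2 enrichment of miR-21a-5p was 1.88 lower at 8 weeks than at P15 (-1.88 ± 0.12, SE, adjusted p = 4.08e-08), where 1.87% of features passed in that direction. From P6 to 8 weeks it was lower by 2.48 ± 0.13 (a difference of -2.48, SE 0.13, adjusted p = 9.94e-16), where 7.93% passed. From P6 to P15 the difference was -0.59 ± 0.13 (SE, 95% interval -0.85 to -0.34) and did not exceed 2-fold (adjusted p = 1); 1.12% of features passed as lower. For miR-21a-3p the difference from P6 to 8 weeks was -3.03 ± 0.33 (SE, adjusted p = 7.61e-07). From P6 to P15 it was -1.98 ± 0.35 (SE, adjusted p = 0.175) and from P15 to 8 weeks -1.05 ± 0.34 (SE, adjusted p = 1), neither of which passed. The P6 to P15 difference of miR-21a-3p passed when P15 male mouse 6 (-2.22, adjusted p = 0.0251) or P6 male mouse 6 (-2.17, adjusted p = 0.0490) was left out. In 32 of the 34 fits that each left out 1 mouse, it did not pass (TREAT adjusted p up to 0.361).

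The comparisons of ages within each fraction show which side moved. They share their P6, P15 and 8-week libraries with each other and with the comparisons above. In a fraction of many cells, fewer cells holding a miRNA and less of it per cell cannot be told apart. Within microglia, miR-21a-5p had its highest median at P6 and its lowest at 8 weeks. Its log2 fold change was -0.44 ± 0.09 (SE, 95% interval -0.63 to -0.26) at P15 against P6, where the ranges overlapped. It was -0.23 ± 0.09 (SE, 95% interval -0.41 to -0.05) at 8 weeks against P15. At 8 weeks against P6 it was -0.67 ± 0.09 (SE, 95% interval -0.86 to -0.48), and the highest library at 8 weeks (9623 CPM) lay under the lowest at P6 (13011 CPM). None of the 3 passed against 2-fold (adjusted p = 1 for each). With library totals alone the values were -0.58, -0.56 and -1.14, which did not pass either (limma TREAT adjusted p = 1, 1 and 0.362), while the median of all features at 8 weeks against P6 went from -0.17 to -0.64.

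miR-21a-3p fell in microglia between P6 and P15, with a log2 change of -1.996 ± 0.18 (SE, TREAT adjusted p = 3.95e-05). Its highest P15 library (104 CPM, male mouse 6; 103.7 before rounding) was just under its lowest P6 library (104.3 CPM), and after TMM scaling the ranges overlapped (log2 CPM up to 6.54 at P15 and from 6.48 at P6). Only 2.15% of features passed as lower in this comparison, and miR-21a-3p was the 24th lowest of 1072 by log2 fold change. From P15 to 8 weeks it did not pass, with a log2 fold change of -0.10 ± 0.19 (SE, 95% interval -0.49 to 0.28; -0.43 with library totals alone), where 2.80% of features passed as lower. At 8 weeks against P6 the log2 fold change was -2.10 ± 0.19 (SE, TREAT adjusted p = 1.25e-06), a 4.29-fold lower level, where 9.42% passed as lower and 7.18% as higher. In that comparison the mural and fibroblast markers miR-199a-3p, miR-199a-5p and miR-214-3p also fell (3 of 5), as did the multiciliated cell markers miR-449a-5p and miR-449c-5p (2 of 4), while 2 of 3 oligodendrocyte markers rose. The summed level of the multiciliated markers in microglia was 401 to 2548 CPM at P6 and 62.4 to 233 CPM at 8 weeks, and that of the mural and fibroblast markers 2685 to 13421 CPM and 3496 to 18188 CPM. From P6 to P15 the median summed level of the multiciliated markers in microglia fell from 1533 to 271 CPM. That of the mural and fibroblast markers fell from 10431 to 7838 CPM, and of the neuronal markers from 27956 to 26675 CPM. The erythroid median rose from 15215 to 45465 CPM and the myeloid one from 15071 to 25162 CPM. The oligodendrocyte median rose from 759 to 1456 CPM and the endothelial one from 2192 to 2628 CPM. The part of these cell types in the fall of miR-21a-3p was not tested.

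Within bulk, the guide arm rose and the passenger arm did not pass the test. miR-21a-5p was 3.15-fold higher at 8 weeks than at P15, with a log2 fold change of 1.65 ± 0.09 (SE, TREAT adjusted p = 4.43e-08), where 6.06% of features passed as higher. Every 8-week bulk library (4357 CPM and above) lay over every P15 one (3165 CPM and below). At 8 weeks against P6 the log2 fold change was 1.80 ± 0.10 (SE, TREAT adjusted p = 1.12e-10), or 3.49-fold, where 13.2% passed. From P6 to P15 the ranges overlapped and the log2 fold change was 0.15 ± 0.10 (SE, 95% interval -0.05 to 0.35, adjusted p = 1), where 1.87% passed as higher. The call at 8 weeks against P15 held under 12 of 13 other settings, with DESeq2 size factors among them (1.49, adjusted p = 6.32e-05). With library totals alone in place of TMM factors, the log2 fold change was 1.18 and did not pass (adjusted p = 0.296), while the median of all features went from 0.24 to -0.23. Relative to that median, miR-21a-5p stood 1.41 higher with TMM factors and 1.42 higher with library totals.

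miR-21a-3p in bulk had log2 fold changes of -0.02 ± 0.32 (SE, 95% interval -0.66 to 0.62) at P15 against P6, and of 0.95 ± 0.31 (SE, 0.34 to 1.56) at 8 weeks against P15. At 8 weeks against P6 it was 0.93 ± 0.30 (SE, 95% interval 0.34 to 1.53). With library totals alone the values at 8 weeks were 0.47 against P15 and 0.62 against P6. None passed (adjusted p = 1 for each), the ranges overlapped throughout, and the bulk libraries held 12 to 94 counts. The oligodendrocyte markers miR-219a-5p, miR-219a-2-3p and miR-338-3p also rose in bulk from P6 to 8 weeks (3 of 3). Their summed level was 1114 to 2852 CPM at P6, 8753 to 22455 CPM at P15 and 16167 to 34040.2 CPM at 8 weeks. Of the 7 neuronal markers miR-138-5p rose (1.42, adjusted p = 0.00449), and of the 4 erythroid markers miR-451a (1.58, adjusted p = 0.0409), where 13.2% of features passed as higher. Of the 5 mural and fibroblast markers, miR-145a-5p rose, miR-199a-3p, miR-199a-5p and miR-214-3p fell, and miR-143-3p did not pass, where 12.4% of features passed as lower. Of the 4 multiciliated markers, miR-449a-5p and miR-449c-5p fell. The part of these cell types in the rise of miR-21a-5p was not tested.

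**Figure D2:**
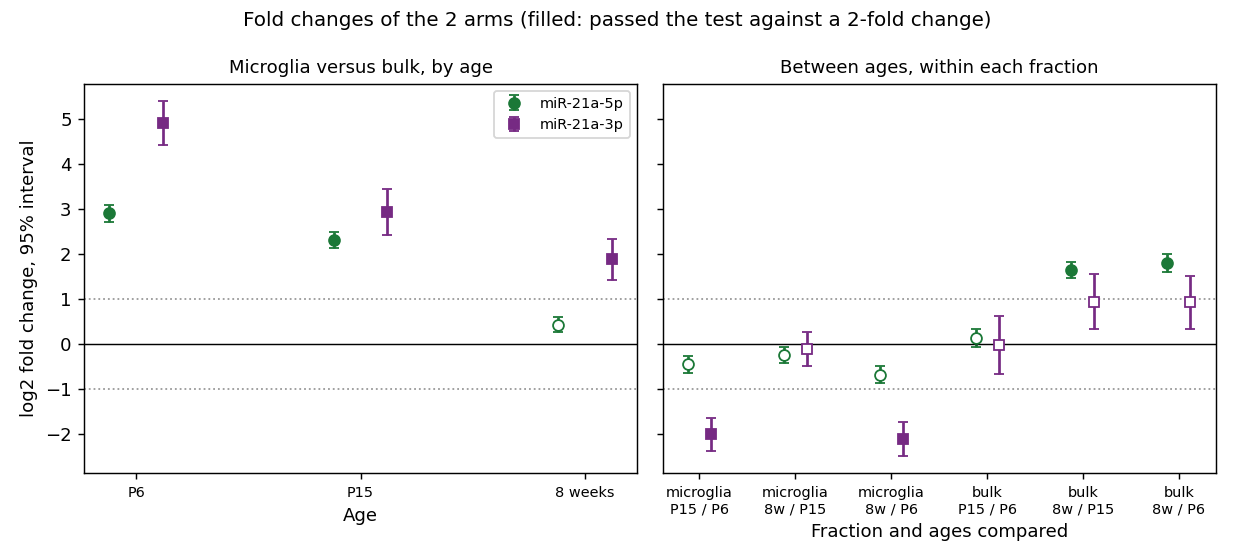
log2 fold changes of both arms with 95% intervals, for microglia against bulk at each age (left) and between ages within each fraction (right). Filled symbols passed the test against a 2-fold change (dotted lines at 1 and -1): microglial miR-21a-3p fell by 1.996 from P6 to P15, and bulk miR-21a-5p rose by 1.65 from P15 to 8 weeks.

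Ordered by mean CPM, both arms had the same sequence of groups. For miR-21a-5p it ran from microglia at P6 (17269 ± 4519.96 CPM, SD, n = 10) through P15 (11249 ± 2653 CPM, n = 12) and 8 weeks (7568 ± 1364 CPM, n = 12) to bulk at 8 weeks (5873 ± 1233 CPM), P15 (2579.6 ± 481 CPM) and P6 (2045 ± 283 CPM). Of these neighbours, only bulk at 8 weeks and at P15 did not overlap. For miR-21a-3p it ran from microglia at P6 (226 ± 116 CPM, SD, n = 10) through P15 (47.8 ± 21.7 CPM, n = 12) and 8 weeks (34.4 ± 10.7 CPM, n = 12) to bulk at 8 weeks (9.53 ± 3.22 CPM), P15 (7.01 ± 3.49 CPM) and P6 (6.75 ± 3.86 CPM). By median, bulk at P15 (5.55 CPM) stood under bulk at P6 (5.91 CPM), so this last step of miR-21a-3p depends on the measure. Here microglia at P6 and P15 did not overlap in CPM, nor did microglia and bulk at 8 weeks, and the other neighbours did. Both gaps were narrow (103.7 against 104.3 CPM, and 16.1 against 16.3 CPM). After TMM scaling microglia at P6 and P15 overlapped.

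The ratio of the arms compares a pair of reads within a library, so neither the library total nor a scaling factor enters it. Differences in how well each arm is ligated and amplified do enter the ratio itself. Summed over libraries, P6 microglia held 503251 reads of miR-21a-5p and 6504 of miR-21a-3p, which is 77.4 guide reads for each passenger read. The same quotient was 236 in P15 microglia and 221 in 8-week microglia. Bulk had quotients of 308 (P6), 352 (P15) and 605 (8 weeks). miR-21a-3p was thus 1.28% of the reads of both arms in P6 microglia, against 0.165% in 8-week bulk. miR-21a-5p was the more abundant arm in every library, and the difference between groups is one of degree.

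At P6 the single microglial libraries held between 49.6 and 146 guide reads per passenger read (median 81.6), and bulk libraries between 151 and 663 (median 372). The groups did not overlap and the quotient was lower in the microglia of all 10 mice. On the log2 scale, with 0.5 added to each count, the ratio averaged 6.37 ± 0.45 (SD, n = 10) in microglia and 8.39 ± 0.61 (SD, n = 10) in bulk. The fitted difference was -2.004 ± 0.19 (SE, limma TREAT adjusted p = 0.000356 over 323 miRNAs with both arms measured). It was the third lowest of these pairs, after miR-346 (-2.49, adjusted p = 0.358) and miR-466m (-2.10, adjusted p = 0.504), and the only pair that passed in this direction, 0.310% of the 323. An exact sign-flip permutation test over the 10 mice gave the smallest p it allows at this number (p = 0.00195, two-sided, 0.00383 after adjustment over 10 comparisons of the ratio).

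At P15 the quotient was 158 to 473 in microglia (median 239) and 182 to 646 in bulk (median 347), with overlap, and it was lower in the microglia of 9 of 12 mice. The log2 difference was -0.63 ± 0.20 (SE, 95% interval -1.02 to -0.23) and did not exceed 2-fold (adjusted p = 1), where 0.310% of pairs passed as lower. Tested against no difference, it passed in the exact sign-flip permutation test (adjusted p = 0.0244) and in limma (adjusted p = 0.0124, as did 15.5% of pairs in that direction). At 8 weeks the quotient was 128 to 322 in microglia (median 219.9) and 438 to 1418 in bulk (median 595), without overlap, lower in the microglia of all 12 mice. The log2 difference was -1.46 ± 0.18 (SE, 95% interval -1.82 to -1.10), the 10th lowest of 323. It did not pass against 2-fold (adjusted p = 0.27), as 0% of pairs passed as lower by limma TREAT. In either direction 2 pairs passed, and 12 had an unadjusted p under 0.05. It passed against no difference by the exact sign-flip permutation test (adjusted p = 0.00122) and by limma (adjusted p = 1.65e-09, as did 14.2% of pairs as lower).

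**Figure D3:**
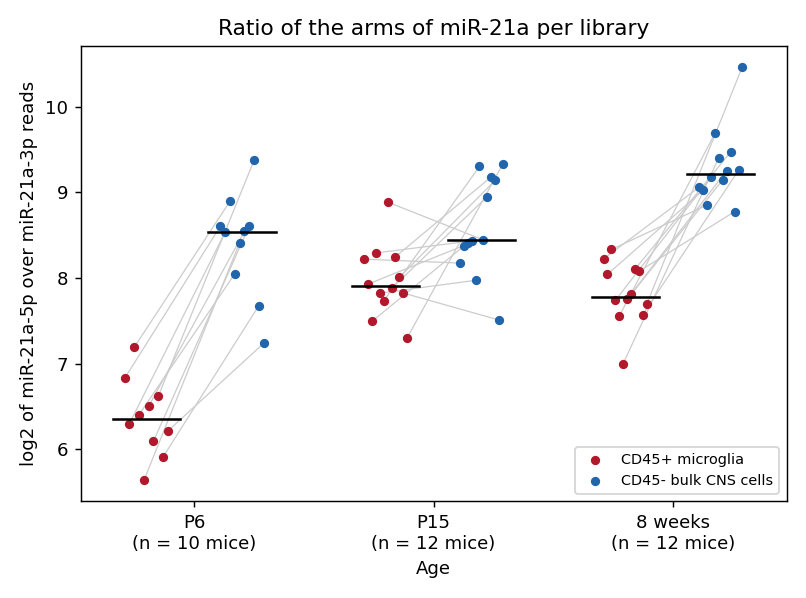
log2 ratio of miR-21a-5p to miR-21a-3p reads in each library (0.5 added to each count) by age, with microglia in red, bulk in blue, grey lines joining the libraries of a mouse and black bars for medians. P6 microglia lie lowest, between 5.63 and 7.19, and 8-week bulk highest, between 8.78 and 10.5.

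Between ages, the ratio in microglia was higher at P15 than at P6, without overlap (log2 7.30 to 8.89 against 5.63 to 7.19). The log2 difference of 1.55 ± 0.16 (SE, 95% interval 1.24 to 1.87) was the 4th highest of 323 but did not pass against 2-fold (adjusted p = 0.125). By limma TREAT 0% of pairs passed here in either direction, with 6 at an unadjusted p under 0.05, and limma without a threshold called 12.4%. A permutation test over mice gave p = 2e-05, the smallest its 100000 resamples allow, and 0.0001 after adjustment over 10 comparisons. The TREAT call appeared when P15 male mouse 6 (1.62, adjusted p = 0.0358), P6 female mouse 3 (1.63, adjusted p = 0.0489) or P6 male mouse 4 (1.60, adjusted p = 0.0484) was left out. In 31 of the 34 fits that each left out 1 mouse, it did not pass (TREAT adjusted p up to 0.257). From P15 to 8 weeks the difference was -0.14 ± 0.16 (SE, 95% interval -0.46 to 0.18, permutation adjusted p = 0.413), where 0.619% of pairs passed as lower by TREAT. At 8 weeks against P6 it was 1.41 ± 0.16 (SE, 95% interval 1.09 to 1.74), which gave an adjusted p of 0.0842 against 2-fold, where 3.10% of pairs passed as higher, and 0.0001 by permutation. Limma without a threshold called 37.5% of pairs in this comparison, in either direction. The ratio at 8 weeks against P6 passed against 2-fold without 8-week female mouse 6 (1.50, adjusted p = 0.0278) or P6 male mouse 4 (1.46, adjusted p = 0.0482). It did not pass in 32 of the 34 fits that each left out 1 mouse (TREAT adjusted p up to 0.256).

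In bulk the ratio at 8 weeks was higher than at P15 by 0.69 ± 0.23 (SE, 95% interval 0.22 to 1.16) and than at P6 by 0.87 ± 0.23 (SE, 95% interval 0.41 to 1.33). Neither exceeded 2-fold (adjusted p = 1 for each), where 0.310% and 3.72% of pairs passed as higher. Both passed against no difference by permutation (adjusted p = 0.00383 and 0.0008). Limma without a threshold called 36.5% of pairs at 8 weeks against P15 and 46.7% against P6, in either direction. From P6 to P15 the difference was 0.18 ± 0.25 (SE, 95% interval -0.32 to 0.67, permutation adjusted p = 0.413). Whether the gap between fractions differed at 8 weeks from that at P6 was tested as an interaction. Its value of 0.55 ± 0.26 (SE, 95% interval 0.02 to 1.07) did not pass (limma TREAT adjusted p = 1, permutation adjusted p = 0.0713), where 0.310% of pairs passed as higher.

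**Figure D4:**
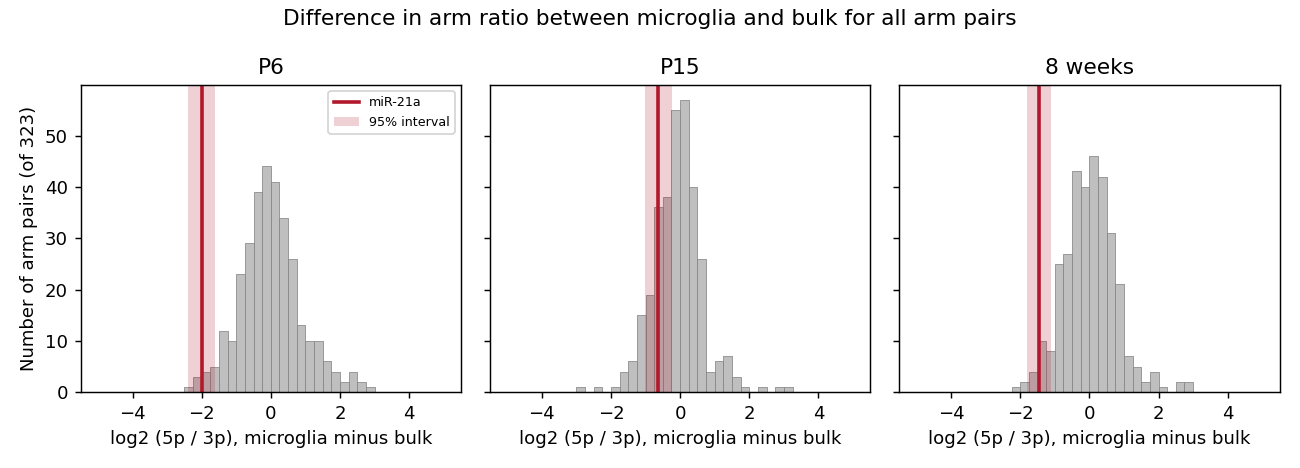
Distribution over 323 miRNAs of the difference in log2 arm ratio between microglia and bulk at each age, in bins of 0.25, with miR-21a as a red line and its 95% interval shaded. From left to right miR-21a lies at -2.004, -0.63 and -1.46, and the median of all pairs at -0.04, -0.07 and 0.01.

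Values of this difference varied among other miRNAs known from myeloid cells. For miR-223 the log2 difference in arm ratio between microglia and bulk had values of -0.07, -0.36 and -0.46 from the youngest to the oldest mice. For miR-142a it was -0.48, -0.29 and 0.11, and for miR-146a, a known feedback regulator of Toll-like receptor signalling, -0.04, -0.06 and 0.85. None of these passed (adjusted p = 1 for each). The myeloid marker miR-511 had differences of -1.90 ± 0.53, -1.07 ± 0.46 and -1.15 ± 0.47 (SE) in the same order, which did not pass (limma TREAT adjusted p = 0.856, 1 and 1). miR-6983 had differences of -2.0004 ± 0.46, -1.09 ± 0.39 and -1.49 ± 0.40 (SE), which did not pass either (adjusted p = 0.504, 1 and 1). Both were named after their values were seen. At P6 they lay close to miR-21a with SEs over 2 times as large, at P15 they were farther from 0 than miR-21a, and whether they differ from miR-21a was not tested. miR-27a moved the opposite way, with differences of 2.37, 3.08 and 2.94 in the same order (adjusted p = 0.00207, 0.00014 and 0.000327), where 0.310%, 0.619% and 0.619% of pairs passed as higher. Of the 14 pairs listed for comparison, 11 had both arms tested. None of the 11 passed as lower in microglia at any age and miR-27a alone passed as higher, and their median difference was -0.04, -0.19 and 0.25 at the 3 ages, against -0.04, -0.07 and 0.01 over all pairs.

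Of 14 listed arms of miRNAs known to be induced by Toll-like receptor and NF-κB signalling, 11 were tested, and members differed in both directions. At P6 and at P15 alike, 4 passed as higher in microglia, the arms of miR-146a and miR-146b, and 2 as lower, miR-132-5p and miR-212-3p. At 8 weeks 5 passed as higher, with miR-155-5p (1.79, adjusted p = 1.25e-07) added, and 3 as lower, these and miR-132-3p. Over all features 17.4%, 21.3% and 21.2% passed as higher at the 3 ages, and 10.6%, 18.7% and 23.7% as lower. The list's median log2 fold change was -0.26 at P6, against 0.25 over all features, -0.45 at P15, against 0.28, and 1.24 at 8 weeks, against -0.10. miR-146a-5p rose in microglia from P6 to 8 weeks (log2 fold change 2.97, adjusted p = 2.1e-19), from a mean of 5653 CPM to 30537 CPM, while miR-21a-5p went from 17269 CPM to 7568 CPM in the same libraries. The fitted log2 fold change of miR-21a-5p was -0.67 and did not pass against 2-fold. Of the 11 listed arms, 5 passed as higher in microglia at 8 weeks against P6, those of miR-146a and miR-132-3p, miR-132-5p and miR-212-3p, where 7.18% of all features passed. In bulk 3 passed as higher, miR-132-3p, miR-132-5p and miR-212-3p (4.14, 3.01 and 2.999 on the log2 scale), and 2 as lower, miR-155-5p and miR-9-5p. Over all features 13.2% passed as higher and 12.4% as lower in that bulk comparison.

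The features most like miR-21a-5p were named by the Pearson correlation of log2 CPM over the 68 libraries, which share their fractions and ages. They were miR-29b-1-5p (0.93), miR-34a-5p (0.92), miR-190a-3p (0.90), miR-378a-3p (0.90) and its own passenger arm (0.89). miR-29b-1-5p had log2 fold changes between microglia and bulk of 5.68, 3.73 and 1.67 at the 3 ages, and miR-34a-5p of 2.83, 1.94 and -0.26. Those most like miR-21a-3p were miR-21a-5p (0.89), miR-378a-3p (0.88), miR-511-5p (0.87), miR-191-3p (0.87) and miR-223-3p (0.87). Within single groups of 10 or 12 libraries, the arms of miR-21a had correlations between 0.54 (8-week bulk) and 0.81 (P15 microglia). After group means were removed, the microglial and the bulk library of the same mouse had correlations of 0.22 for miR-21a-5p and 0.09 for miR-21a-3p over 34 mice.

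Male and female mice were compared within each age and fraction. None of the 12 tests on the arms passed by limma TREAT, by edgeR or by DESeq2, and 0% of all 1072 features passed in any of these comparisons by TREAT. With no fold-change threshold none of the 12 passed either, and 3 had an unadjusted p under 0.05. The value farthest from 0 was that of miR-21a-3p in P6 microglia, 0.77 ± 0.25 higher in males on the log2 scale (SE, 95% interval 0.26 to 1.27, limma TREAT adjusted p = 1). Its levels there were 104 to 165 CPM in 4 females and 163 to 457 CPM in 6 males, with overlap. In 8-week bulk, miR-21a-5p had a log2 difference of -0.37 ± 0.13 between males and females (SE, 95% interval -0.63 to -0.12, adjusted p = 1).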

How the data were processed

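Small RNA libraries of 35 mice were sequenced by the authors, who trimmed reads with fastp 0.20.0 (submitters' processing notes), kept those above a minimum length, and mapped them to miRBase mature miRNAs and the mm10/GRCm38 genome with miRDeep2. The deposited counts are raw whole-number counts per miRNA and library; reads carry no molecular identifiers, so the limit set by 3 counts covers counting error only. The printed 95% intervals are those of the fitted mean differences. The spread between mice enters them through the SE, and single mice can lie outside them. Mature sequences came from RefSeq (GRCm38.p6) and the locus from the GENCODE annotation of GRCm38; both members matched.

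P6 female mouse 6 was set aside as the study's removed outlier; which mouse that was is inferred. Where a name had several entries the one with the largest total was kept, and repeated unannotated candidates were dropped (1882 features), and the 1072 that reached 1 CPM in 5 or more libraries were tested. TMM-scaled counts (edgeR 4.0.16) were fitted with limma-voom (limma 3.58.1, R 4.3.3) as 12 group means of age, sex and fraction, contrasts averaged over sexes, with mouse as a random effect (correlation within mice 0.12), since the labels give both libraries of a mouse the same number. TREAT tested against an absolute log2 fold change of 1 at a false discovery rate of 0.05. The arm ratio was the difference of the arms' voom values (0.5 added to counts), tested over 323 pairs in the same way. Permutation tests over mice used scipy 1.17.1. Named miRNAs were both arms, miRNAs sharing a seed or within 3 mismatches, the 5 features most correlated with each arm, and listed markers and regulated miRNAs; miR-21b was added by its name. The members and lists were chosen with earlier results of these data known. In simulated data with log2 changes of 2.5, 97.4% were recovered for P6 microglia against bulk, 89.8% for microglia at 8 weeks against P6 and 90.4% for the P6 arm ratio. No smaller change was simulated, so these values do not give the recovery of the smaller differences above. No library date or batch was given in the sources used here. Alternatives included other scalings, filters, edgeR, DESeq2 1.42.0, thinning to 1678034 counts and leaving out each mouse.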

Additional observations from a re-analysis of the deposited data

Results flagged for a closer look

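The enrichment of both arms in microglia differed between ages by the interaction of age and fraction. For miR-21a-5p the log2 enrichment changed by -1.88 between P15 and 8 weeks and by -2.48 between P6 and 8 weeks. For miR-21a-3p it changed by -3.03 between P6 and 8 weeks.

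Among P15 female bulk libraries, that of mouse 6 stood apart in the arm ratio. Its log2 ratio was 9.30, and the other 5 lay between 7.97 and 8.43, a gap of 0.654 of the range. It was the only such library among 36 groups of single values tested, of which chance alone would mark about 1 in 20. It held 14 counts of miR-21a-3p.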

How the results depend on the processing

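All 48 results (38 of levels, 10 of the arm ratio) were recomputed under other settings (598 values) and without each mouse (1632 values). In all, 2117 of 2230 kept direction and side of the threshold, 1 lost its call, 31 gained a call and 81 changed sign, all of these in results that were not called. The cause was not tested except where the setting itself is a lower threshold. The loss was the rise of miR-21a-5p in bulk from P15 to 8 weeks with library totals alone (1.18). Dropping the replicate block changed no call among the 48 results, nor did mouse as a fixed block among the 14 that it could estimate (levels between fractions and their interactions with age): at P6 the log2 enrichment was 2.92 and 4.92 without the block and 2.91 and 4.86 with mouse as a fixed block, for miR-21a-5p and miR-21a-3p, and the ratio difference without the block -2.01.

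Without a fold-change threshold, limma also called miR-21a-5p microglia against bulk at 8 weeks (0.44), where 34.9% of all features passed as higher. It also called miR-21a-5p in microglia at P15 against P6 (-0.44), 8 weeks against P15 (-0.23) and against P6 (-0.67), and its enrichment at P15 against P6 (-0.59). For miR-21a-3p it called bulk at 8 weeks against P15 (0.95) and P6 (0.93), and enrichment at P15 against P6 (-1.98) and at 8 weeks against P15 (-1.05). For the ratio it called microglia against bulk at P15 (-0.63) and 8 weeks (-1.46), microglia at P15 (1.55) and 8 weeks (1.41) against P6, and bulk at 8 weeks against P15 (0.69) and P6 (0.87). The permutation test called these ratio differences too, at unweighted means of -0.63, -1.48, 1.60, 1.46, 0.70 and 0.91. In these ratio comparisons limma without a threshold called from 12.4% (microglia at P15 against P6) to 46.7% (bulk at 8 weeks against P6) of all pairs. The enrichment of miR-21a-3p at P15 against P6 passed with library totals alone (-2.28) and under the filter of 10 counts in 12 libraries (-2.16), and the ratio at 8 weeks with quality weights (-1.49). Over the mice left out, the ratio in microglia ranged from 1.47 to 1.63 at P15 and from 1.35 to 1.50 at 8 weeks against P6, and that enrichment from -2.22 to -1.82.

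The changes of sign were in 6 uncalled results near 0. miR-21a-3p in bulk at P15 against P6 became 0.062 with DESeq2, 0.11 with DESeq2 size factors, 0.10 under the 10-count filter, 0.055 with entries summed, 0.093 with every entry kept, 0.23 thinned, 0.15 with library totals, 0.057 unfiltered and 0.026 with quality weights (mice left out: -0.060 to 0.20). For males against females in P6 bulk it became 0.27, 0.059, 0.046, 0.038, 0.075, 0.063, 0.019, 0.00402 and 0.20 in that order, and 0.16 with edgeR (-0.22 to 0.26). miR-21a-5p for males against females in P15 bulk became 0.064, 0.087, 0.048, 0.077, 0.11, 0.077, 0.18 and 0.065 in that order up to no filter (-0.085 to 0.15). With quality weights miR-21a-3p became -0.0014 for males against females in P15 microglia (-0.074 to 0.39) and 0.0098 in microglia at 8 weeks against P15 (-0.24 to 0.079). Thinned, the ratio in bulk at P15 against P6 became -0.033. The passenger arm in bulk had 12 to 94 counts a library.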

Other observations

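The libraries of P6 female mouse 6, which entered only the setting with this mouse put back, held 6782 CPM of miR-21a-5p and 74.9 CPM of miR-21a-3p in microglia. Both values are under the lowest of the other P6 microglial libraries (13011 and 104 CPM). Its log2 arm ratio of 6.50 lay inside their range of 5.63 to 7.19. In bulk the same mouse had 2152 CPM of miR-21a-5p, 10.6 CPM of miR-21a-3p and a log2 ratio of 7.66, all inside the range of the other P6 bulk libraries.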
